A study of Homo sapiens with 12 samples.

Results

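Transcripts of 10 genes that carry glucose into the cell and through glycolysis to lactate were followed across 4 stages of blood differentiation. The genes are the glucose transporters SLC2A1 and SLC2A3, the hexokinases HK1 and HK2, the phosphofructokinase PFKP, PGK1, ENO1 and PKM of the lower pathway, and the lactate dehydrogenases LDHA and LDHB. They were taken from the table by symbol, and each stood on a single line. They are 10 of 56593 distinct symbols, and all 10 passed the filter of 1 FPKM in at least 3 libraries, which left 14840 genes for testing. FPKM (fragments per kilobase of transcript, scaled to the mapped fragments of the library) is a level scaled to transcript length and library size, so levels of different genes can be set side by side.

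RNA-seq was done on undifferentiated H1 cells, an established human embryonic stem cell line, and on 3 sorted populations derived from them. These were APLNR+ mesoderm cells (day 2), CD31+CD34+ hemogenic endothelial progenitors (HEPs, day 5) and CD43+ hematopoietic progenitor cells (HPCs, day 8). Differentiation was done in Custom mTeSR1 with activin A and BMP4 for 2 days, followed by VEGF and bFGF for 6 days, and no genetic change was given for any population. The populations thus differed in growth factors and time of differentiation as well as in stage, and these cannot be told apart. Each population had 3 libraries. All cells came from this single line, and the study's statistics section speaks of independent experiments in general without naming the sequenced libraries. No label says that the libraries of a population came from separate differentiations, so p-values measure the spread between these libraries, which may be technical.

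Glucose enters cells through facilitative transporters of the SLC2A (GLUT) family. Hexokinases trap it as glucose 6-phosphate, phosphofructokinase commits it to glycolysis, and the lower enzymes yield ATP and pyruvate. Lactate dehydrogenase interconverts pyruvate and lactate as a tetramer of LDHA and LDHB chains: LDHA-rich forms are known for lactate production and LDHB-rich forms for lactate use. Pluripotent stem cells are known for active glycolysis, and several genes of the pathway are known targets of the hypoxia-inducible factors and of MYC.

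Each library listed between 12313 and 13084 entries at 1 FPKM or more. FPKM keeps no read totals, so absolute depth is unknown; spacing of the lowest values gave relative depths from 0.552 to 1.27 times that of CD43+ replicate 3, with replicate 1 the shallowest library of every population. PGK1, ENO1, LDHA and LDHB had their lowest value in replicate 1 in all 4 populations, and the part of depth in this was not tested. Sums of defining markers were highest in the population they label. The 4 pluripotency genes summed to between 1484 and 1554 FPKM in H1 and between 505 and 575 for APLNR+ cells. Their sum was from 265 to 331 for CD31+CD34+ and from 121 to 141 for CD43+ cells, where LIN28A averaged 118.5 FPKM. Of 5 mesoderm markers the sum was from 487 to 532 for APLNR+ cells, of 5 endothelial markers from 427 to 588 for CD31+CD34+ cells, and of 5 blood markers from 712 to 768 for CD43+ cells, although PTPRC (CD45) averaged 0.197 FPKM there and was listed at 0 for CD31+CD34+ cells. CD43+ cells also held red cell genes (summed FPKM of 5 genes from 615 to 678, against at most 2.54 elsewhere) and endothelial markers (from 236 to 317). PECAM1 (CD31), a gene used for sorting, averaged 95.9 FPKM there against 55.2 in CD31+CD34+ cells, whereas CDH5, CD34, KDR and TEK were lower there. The 5 mesoderm markers summed to between 388 and 437 in CD31+CD34+ cells, of which APLNR, a gene used for sorting, averaged 403 FPKM there against 383 in APLNR+ cells. The other 4 were lower there than in APLNR+ cells, MIXL1 for example at 1.096 against 71.3 FPKM. The summed FPKM of 4 mesenchyme or smooth muscle genes was from 423 to 565 for APLNR+ and from 346 to 421 for CD31+CD34+ cells, against at most 107 in the others. TAGLN carried most of it (466 and 274 FPKM), whereas ACTA2 and PDGFRB were highest in CD43+ cells, at 34.8 and 17.5 FPKM. Of the endoderm pair, SOX17 reached a mean of 24.2 FPKM for CD31+CD34+ cells while FOXA2 stayed at 0.899; the neural pair summed to at most 0.224 FPKM in every library. The part of such mixtures in the results was not tested. In sorted bulk samples, fewer cells of a type and less RNA per cell cannot be told apart.

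**Figure D1:**
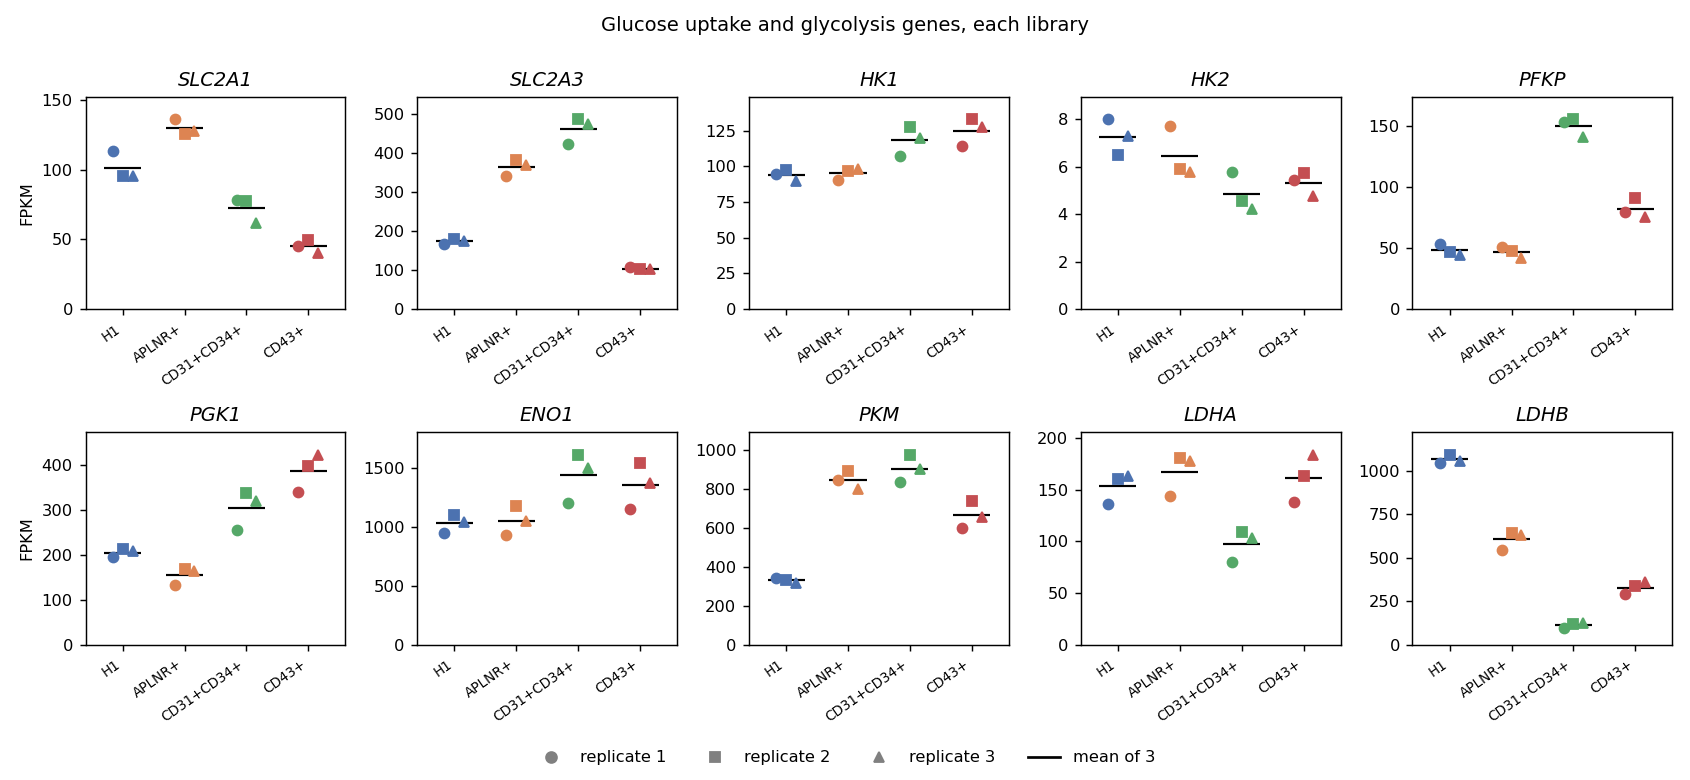
FPKM of the 10 genes in each of the 12 libraries, by population (linear axes from 0; symbols mark replicate numbers, bars the mean of 3). SLC2A3 and PFKP peak in CD31+CD34+ cells, where LDHB is at its lowest, between 96.3 and 122 FPKM.

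Members were raised and lowered side by side in every comparison. A gene is called raised or lowered below when its limma p, adjusted over all genes tested, was under 0.05; changes are differences of log2(FPKM + 1), given with their SE. From H1 to APLNR+ cells, 3 of 10 were raised (SLC2A1, SLC2A3 and PKM; 22.7% of all genes tested were) and 2 lowered (PGK1 and LDHB; 35.2% of all genes). From APLNR+ to CD31+CD34+ cells, 5 were raised (SLC2A3, HK1, PFKP, PGK1 and ENO1; background 35.9%) and 4 lowered (SLC2A1, HK2, LDHA and LDHB; background 37.9%). From CD31+CD34+ to CD43+ cells, 3 were raised (PGK1, LDHA and LDHB; background 25.9%) and 4 lowered (SLC2A1, SLC2A3, PFKP and PKM; background 27.8%). Between the ends, CD43+ against H1, 5 were raised (HK1, PFKP, PGK1, ENO1 and PKM; background 33.2%) and 4 lowered (SLC2A1, SLC2A3, HK2 and LDHB; background 41.5%).

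Changes of at least 2-fold were fewer. SLC2A3 and PKM rose by that much from H1 to APLNR+ cells, 2 of 10 (8.3% of all genes did), and 0 members fell by it (7.62% of all genes). At the next step PFKP rose (1 of 10; 12.5% of all genes) and LDHB fell (1 of 10; 17.1%). From CD31+CD34+ to CD43+ cells LDHB rose (1 of 10; 5.58%) and SLC2A3 fell (1 of 10; 8.79%). In CD43+ cells against H1, PKM was higher (1 of 10; 14.6%) and SLC2A1 and LDHB were lower (2 of 10; 22.5%). The libraries of the populations did not overlap for 5, 9, 7 and 9 members in these 4 comparisons, against 66.0%, 75.7%, 58.0% and 76.3% of all genes. Median changes of the members were 0.02, 0.20, -0.0025 and 0.23, beside -0.12, -0.01, -0.0049 and -0.10 over all genes tested. As the comparisons share populations, their counts are not independent. Shares of members this close to those of all genes are no result about the group.

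**Figure D2:**
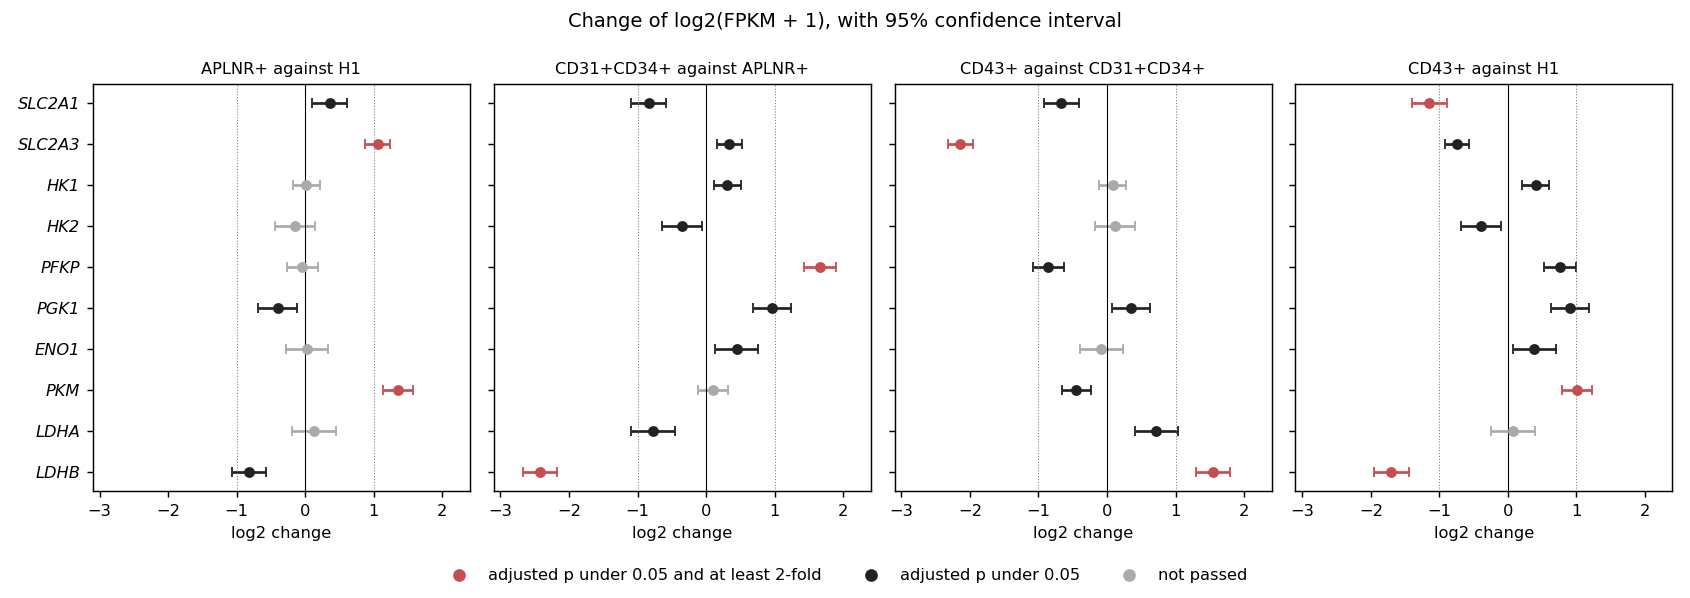
Change of log2(FPKM + 1) for each gene in the 4 comparisons, with 95% confidence intervals (red: adjusted p under 0.05 and at least 2-fold; black: adjusted p under 0.05; grey: not passed; dotted lines at 2-fold). LDHB moves down by 2.43 and then up by 1.54, while HK1, HK2, PGK1, ENO1 and LDHA stay within 2-fold in the 4 comparisons drawn.

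SLC2A1 encodes GLUT1, the widely expressed basal glucose transporter. Its level was 113, 95.1 and 95.5 FPKM in the H1 libraries, 136, 125 and 128 for APLNR+ cells, 78.3, 77.6 and 61.5 for CD31+CD34+ cells, and 45.3, 49.7 and 40.6 for CD43+ cells. APLNR+ libraries were thus highest and CD43+ libraries lowest, with no overlap between any pair of populations. It was raised by 0.36 ± 0.12 from H1 to APLNR+ cells (adjusted p 0.0196), lowered from there to CD31+CD34+ cells (log2 change -0.84 ± 0.12, adjusted p 3.65e-05) and again to CD43+ cells (log2 change -0.66 ± 0.12, adjusted p 0.00044). CD43+ cells held 45.2 ± 4.58 FPKM against 101 ± 10.4 in H1 (SD, n = 3), a log2 change of -1.15 (adjusted p 1.82e-06). The rise to APLNR+ cells missed the threshold without H1 replicate 2 (0.31, adjusted p 0.0746), H1 replicate 3 (0.32, adjusted p 0.0712) or APLNR+ replicate 1 (0.32, adjusted p 0.063).

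SLC2A3 encodes GLUT3, a transporter of high glucose affinity best known from neurons. Its levels were 168, 181 and 176 FPKM in H1 and 343, 382 and 370 for APLNR+ cells. In CD31+CD34+ cells they were 425, 487 and 476, and in CD43+ cells 107, 102 and 103. The order of the populations, from highest to lowest, was CD31+CD34+, APLNR+, H1 and CD43+, and their libraries did not overlap. SLC2A3 was raised by 1.06 ± 0.08 at the first step (adjusted p 4.02e-07) and by 0.34 ± 0.08 at the second (adjusted p 0.00251), a rise that quantile normalization reduced to 0.12 (adjusted p 0.234). From CD31+CD34+ to CD43+ cells it changed by -2.14 ± 0.08 (adjusted p 1.29e-09), a 4.40-fold drop and the largest fall of any member at that step. CD43+ cells also lay below H1, 104 ± 2.54 against 175 ± 6.22 FPKM (log2 change -0.74, adjusted p 3.99e-06).

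The balance of both transporters shifted with these levels. SLC2A3 exceeded SLC2A1 in all 12 libraries: the ratio of their FPKM was from 1.48 to 1.90 in H1, from 2.52 to 3.05 for APLNR+ cells, from 5.43 to 7.74 for CD31+CD34+ cells and from 2.06 to 2.54 for CD43+ cells. On the log2 scale it changed by 0.70, 1.18 and -1.47 at the 3 steps and by 0.40 between the ends, without overlap at the 3 steps or between the ends. By exact two-sided permutation each of these differences had p 0.1, the lowest value possible with 3 libraries a side (0.12 after adjustment over 12 tests of ratios). The sum of both genes was 276 ± 5.03 FPKM in H1, 495 ± 14.7 for APLNR+, 535 ± 30.9 for CD31+CD34+ and 149 ± 5.05 for CD43+ cells. Among 14 SLC2A genes, SLC2A3 held 57.3% ± 2.92 of the summed FPKM in H1, 70.0% ± 2.14 for APLNR+, 80.3% ± 2.43 for CD31+CD34+ and 60.3% ± 1.46 for CD43+ cells, and SLC2A1 most of the rest. SLC2A6 (GLUT6), another transporter of the family, also peaked in CD31+CD34+ cells at a low level. It went from 4.50 ± 0.84 in H1 to 7.04 ± 0.71, 18.0 ± 1.61 and 2.89 ± 0.06 FPKM, with changes of 0.56, 1.24 and -2.28 (adjusted p 0.00193, 1.9e-06 and 1.88e-08). Reads of SLC2A3 can be shared with near copies: 16.0% of the stretches of 50 bases in its transcripts occur in other genes, 15.3% in SLC2A14. SLC2A14 and 3 pseudogenes together held from 1.99% to 5.63% of the FPKM summed over SLC2A3 and its copies.

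**Figure D3:**
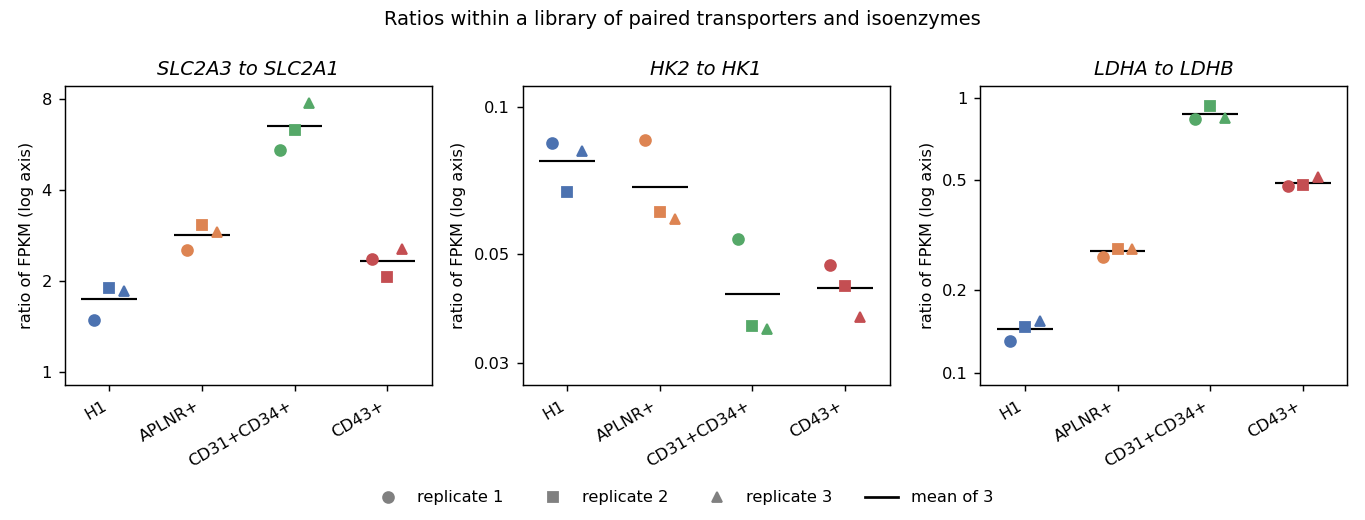
Ratio of FPKM within each library for the transporter, hexokinase and lactate dehydrogenase pairs (log axes; bars are the mean of 3). SLC2A3 to SLC2A1 and LDHA to LDHB are highest in CD31+CD34+ cells, at 6.48 and 0.870, whereas HK2 to HK1 lies between 0.0352 and 0.0853 in all libraries.

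HK1, the housekeeping hexokinase, moved little. It averaged 94.1 ± 3.75 FPKM in H1, 95.1 ± 4.12 for APLNR+, 118 ± 10.2 for CD31+CD34+ and 125 ± 9.42 for CD43+ cells, and its 12 libraries spanned 90.0 to 133 FPKM. H1 and APLNR+ libraries overlapped (change 0.01, 95% interval -0.18 to 0.21, adjusted p 0.904), and so did CD31+CD34+ and CD43+ libraries (0.08, interval -0.12 to 0.28, adjusted p 0.477). The later pair lay above the earlier one: HK1 was raised by 0.31 ± 0.09 from APLNR+ to CD31+CD34+ cells (adjusted p 0.00798) and by 0.40 ± 0.09 in CD43+ cells against H1 (adjusted p 0.00134). Quantile normalization reduced the first of these to 0.08 (adjusted p 0.232), and brought the differences within both pairs past the threshold, at 0.25 (adjusted p 0.004) and 0.18 (adjusted p 0.0292).

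HK2, the inducible hexokinase of tumors and muscle, was the lowest member in every population. Its levels were 8.00, 6.50 and 7.29 FPKM in H1, 7.71, 5.89 and 5.79 for APLNR+, 5.76, 4.57 and 4.21 for CD31+CD34+ and 5.45, 5.72 and 4.75 for CD43+ cells. Its neighbours along the course overlapped from H1 to APLNR+ cells (-0.15, interval -0.44 to 0.14, adjusted p 0.355) and from CD31+CD34+ to CD43+ cells (0.12, interval -0.18 to 0.41, adjusted p 0.487). It was lowered from APLNR+ to CD31+CD34+ cells (-0.35 ± 0.13, adjusted p 0.031) and in CD43+ cells against H1 (-0.39 ± 0.13, adjusted p 0.0193). The first was lost without APLNR+ replicate 1 (-0.24, adjusted p 0.133), CD31+CD34+ replicate 2 (-0.32, adjusted p 0.0849) or CD31+CD34+ replicate 3 (-0.27, adjusted p 0.117), and under 4 other settings. The second was lost without H1 replicate 1 (-0.33, adjusted p 0.0689) or CD43+ replicate 3 (-0.32, adjusted p 0.0697), and under all 3 other scalings (adjusted p from 0.113 to 0.242).

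HK2 stood at 0.0774 ± 0.0093 of HK1 in H1, 0.0685 ± 0.0147 for APLNR+, 0.0415 ± 0.0105 for CD31+CD34+ and 0.0427 ± 0.0052 for CD43+ cells. This ratio, which library scaling hardly touches, was lower in CD43+ cells than in H1 without overlap (log2 difference -0.79, exact permutation p 0.1). It also fell without overlap from APLNR+ to CD31+CD34+ cells (-0.66, exact permutation p 0.1). The differences at the first and the third step were -0.17 (exact permutation p 0.4) and 0.04 (exact permutation p 0.8). HK1 held from 90.4% to 95.7% of the mean FPKM share of 5 hexokinase genes. HK3 and HKDC1 averaged at most 0.175 and 0.277 FPKM in any population and were not tested.

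PFKP, the platelet-type phosphofructokinase, showed a single peak. Its levels were 53.6, 46.4 and 44.3 FPKM in H1, 50.5, 47.3 and 42.2 for APLNR+, 153, 155 and 140.3 for CD31+CD34+ and 79.7, 91.2 and 75.7 for CD43+ cells. H1 and APLNR+ libraries overlapped (change -0.04, interval -0.27 to 0.19, adjusted p 0.753), a difference whose sign turned under other scalings. PFKP was raised by 1.66 ± 0.10 in CD31+CD34+ cells, a 3.16-fold change (adjusted p 4.41e-08), and lowered from there to CD43+ cells (-0.86 ± 0.10, adjusted p 2.63e-05). CD43+ cells remained above H1 (0.76 ± 0.10, adjusted p 2.92e-05).

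Of the other phosphofructokinases, only PFKL rose with PFKP from APLNR+ to CD31+CD34+ cells. PFKL, the liver type, rose at the same step from 24.6 ± 3.99 to 55.5 ± 5.89 FPKM (1.15 ± 0.16, adjusted p 4.82e-05) and stood at 54.2 ± 9.85 FPKM for CD43+ cells. PFKM, the muscle type, was at 38.6 ± 1.80 FPKM for APLNR+ and 35.4 ± 1.65 for CD31+CD34+ cells (-0.12, interval -0.34 to 0.09, adjusted p 0.275) and rose to 53.5 ± 2.46 for CD43+ cells (0.59 ± 0.10, adjusted p 0.000332). PFKP therefore made up 40.0% ± 1.197 of the summed FPKM of the 3 genes in H1, 42.4% ± 1.32 for APLNR+, 62.2% ± 1.13 for CD31+CD34+ and 43.3% ± 1.80 for CD43+ cells. That sum was 121 ± 15.6, 109.9 ± 9.06, 240.3 ± 12.3 and 189.9 ± 19.2 FPKM.

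**Figure D4:**
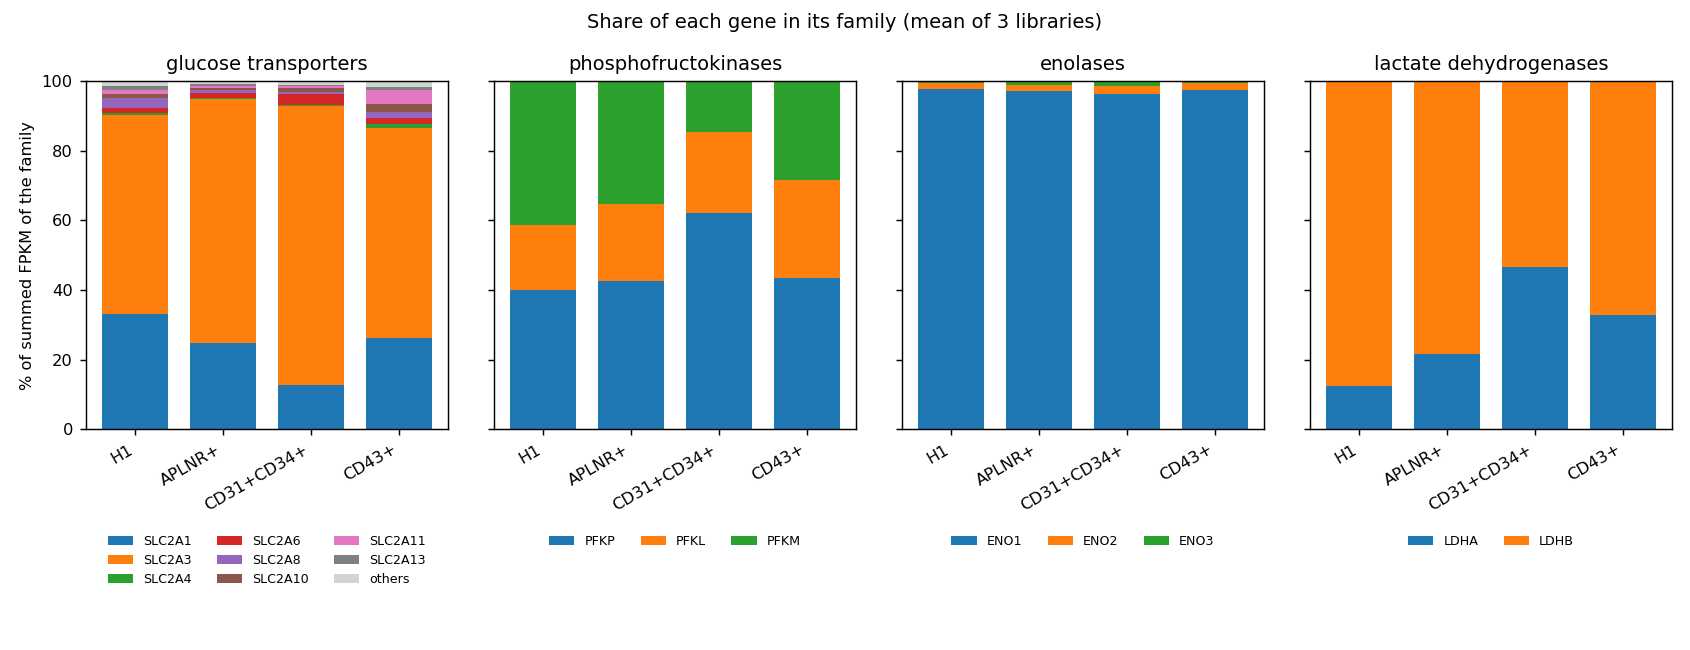
Share of each gene in the summed FPKM of its family, mean of 3 libraries per population (transporters under 1% in every population are pooled as others, and LDHC is not drawn). PFKP rises to 62.2% of the phosphofructokinases and LDHA to 46.5% of the lactate dehydrogenases in CD31+CD34+ cells, while ENO1 holds at least 96.2% of the enolases throughout.

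PGK1 encodes the phosphoglycerate kinase of the first ATP-yielding step. It read 195, 212 and 208 FPKM in H1, 133, 167 and 165 for APLNR+, 256, 336 and 320.3 for CD31+CD34+ and 340, 397 and 422 for CD43+ cells. No populations overlapped, with APLNR+ lowest and CD43+ highest. PGK1 was lowered at the first step (-0.40 ± 0.13, adjusted p 0.0172), then raised by 0.96 ± 0.13 (adjusted p 2.63e-05) and by 0.35 ± 0.13 (adjusted p 0.038), and CD43+ cells were 1.31 ± 0.13 above APLNR+ cells (adjusted p 1.54e-06) and 0.91 ± 0.13 above H1 (adjusted p 3.68e-05). Its paralog, the testis gene PGK2, averaged at most 0.0071 FPKM.

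The calls of both smaller changes of PGK1 rested on single libraries. The first fall was not called without H1 replicate 2 (-0.38, adjusted p 0.056) or APLNR+ replicate 1 (-0.30, adjusted p 0.078), nor under quantile normalization (-0.17, adjusted p 0.212). The last rise was not called without CD31+CD34+ replicate 1 (0.23, adjusted p 0.15), CD43+ replicate 2 (0.33, adjusted p 0.0932) or CD43+ replicate 3 (0.28, adjusted p 0.132), and missed the threshold under 3 other settings (adjusted p from 0.0804 to 0.104).

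ENO1, the common enolase, was among the most abundant transcripts, ranking between 49 and 88 of 14840 tested genes by mean FPKM. Its libraries read 950, 1099 and 1042 FPKM in H1, 932, 1175 and 1051 for APLNR+, 1202, 1610 and 1498 for CD31+CD34+ and 1152, 1542 and 1369 for CD43+ cells. H1 overlapped APLNR+ (0.03, interval -0.28 to 0.34, adjusted p 0.89) and CD31+CD34+ overlapped CD43+ (-0.08, interval -0.40 to 0.23, adjusted p 0.644). Quantile normalization brought both past the threshold, at 0.32 (adjusted p 0.0262) and -0.52 (adjusted p 0.0018). It was raised by 0.44 ± 0.14 from APLNR+ to CD31+CD34+ cells (adjusted p 0.014) and by 0.39 ± 0.14 in CD43+ cells against H1 (adjusted p 0.0272). The former was lost without APLNR+ replicate 1 (0.36, adjusted p 0.0587), without CD31+CD34+ replicate 2 (0.36, adjusted p 0.0632) and under quantile normalization (0.26, adjusted p 0.0529). The latter was lost without H1 replicate 1 (0.33, adjusted p 0.0824), H1 replicate 3 (0.40, adjusted p 0.0531), CD43+ replicate 2 (0.29, adjusted p 0.111) or CD43+ replicate 3 (0.37, adjusted p 0.0643), under quantile normalization (0.06, adjusted p 0.651) and with no filter (0.39, adjusted p 0.0694).

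The other enolases stood at low levels. ENO3, the muscle enolase, went from 11.2 ± 0.34 FPKM for APLNR+ to 22.5 ± 2.35 for CD31+CD34+ and 7.18 ± 0.96 for CD43+ cells (0.94 and -1.53, adjusted p 1.28e-05 and 3.67e-07). ENO2, the neuronal enolase, rose from 19.7 ± 1.98 to 34.2 ± 2.93 FPKM at the same step (0.77, adjusted p 5.77e-05) and overlapped between CD31+CD34+ and CD43+ cells (-0.28, interval -0.52 to -0.03, adjusted p 0.0566). ENO2 averaged at most 2.31% and ENO3 at most 1.54% of the enolase FPKM in a population.

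PKM, which encodes the muscle-type pyruvate kinases M1 and M2 as splice forms, made its step early. Its libraries read 345, 332 and 316 FPKM in H1, 849, 891 and 799 for APLNR+, 839, 976 and 902 for CD31+CD34+ and 600.4, 741 and 656 for CD43+ cells. All H1 libraries lay below all others, APLNR+ and CD31+CD34+ libraries overlapped, and CD43+ libraries lay between. PKM was raised by 1.35 ± 0.10 at the first step (adjusted p 2.58e-07), the largest rise of any member there, and differed by 0.10 at the second (interval -0.12 to 0.31, adjusted p 0.401). It was lowered in CD43+ cells (-0.45 ± 0.10, adjusted p 0.00249), which still stood 2.00-fold above H1 (1.00 ± 0.10, adjusted p 1.6e-06). That last change was under 2-fold under quantile normalization (0.78) and without H1 replicate 3 (0.97) or CD43+ replicate 2 (0.92). Gene-level FPKM do not separate M1 from M2, and PKLR, the liver and red cell pyruvate kinase, averaged at most 0.325 FPKM.

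LDHB had the widest range of population means of all members, 3.24 on the log2 scale. This heart-type chain read 1045, 1091 and 1057 FPKM in H1 and 544, 641 and 630 for APLNR+ cells. It read 96.3, 118 and 122 for CD31+CD34+ cells and 289, 338 and 358 for CD43+ cells. No populations overlapped, and the order from highest to lowest was H1, APLNR+, CD43+ and CD31+CD34+. LDHB was lowered at the first step (-0.82 ± 0.12, adjusted p 7.54e-05) and lowered 5.37-fold at the second (-2.43 ± 0.12, adjusted p 4.13e-09), so that CD31+CD34+ cells stood 9.47-fold below H1 (-3.24 ± 0.12, adjusted p 1.68e-10). It was raised 2.92-fold from there to CD43+ cells (1.54 ± 0.12, adjusted p 3.43e-07), which remained below H1 (-1.70 ± 0.12, adjusted p 4.59e-08). These directions and calls held without each library in turn.

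LDHA, the muscle-type chain, read 136, 160.2 and 163 FPKM in H1 and 144, 181 and 178 for APLNR+ cells. It read 80.3, 109 and 104 for CD31+CD34+ cells and 138, 163 and 184 for CD43+ cells. CD31+CD34+ libraries lay below all others, and the other populations overlapped each other. LDHA was lowered from APLNR+ to CD31+CD34+ cells (-0.78 ± 0.15, adjusted p 0.000432) and raised by 0.72 ± 0.15 to CD43+ cells (adjusted p 0.00126). The change from H1 to APLNR+ cells was 0.12 (interval -0.19 to 0.44, adjusted p 0.492; 0.36 and adjusted p 0.0235 under quantile normalization) and that from H1 to CD43+ cells 0.07 (interval -0.25 to 0.39, adjusted p 0.678).

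Within a library, LDHA relative to LDHB was from 0.131 to 0.154 in H1, from 0.265 to 0.282 for APLNR+, from 0.834 to 0.931 for CD31+CD34+ and from 0.478 to 0.513 for CD43+ cells. The populations did not overlap, and the log2 ratio changed by 0.94, 1.65 and -0.82 at the 3 steps and by 1.77 between the ends (exact permutation p 0.1 each, 0.12 adjusted). LDHA thereby made up 12.6% ± 0.93 of the lactate dehydrogenase FPKM in H1 and 46.5% ± 1.48 for CD31+CD34+ cells. The rise of this share accompanied a fall of both genes at the second step. Their sum went from 1217 ± 34.8 FPKM in H1 to 772 ± 73.5, 209.8 ± 28.8 and 489.7 ± 58.3 FPKM. Of the stretches of 50 bases in LDHB transcripts, 29.5% occur in other genes, 28.9% in AC010197.2, and reads there could be split between both. LDHA shared 4.03%. Named pseudogenes held at most 0.842% of the LDHA total and 0.0443% of the LDHB total. These do not include AC010197.2, whose level was not examined.

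Promoter sequences are shown for LDHA and LDHB, whose ratio shifted across the stages, and for PGK1, which rose at the second step while both fell. They are RefSeq windows on GRCh38.p14, not the hg19 build named for the deposited values, from 250 bases before to 50 after the transcription start, written 5′ to 3′ on the gene's strand. Capitals mark ACGTG and GCGTG on either strand (CACGT and CACGC when read on the other strand), the core letters of the hypoxia response element. ACGTG also lies within CACGTG, the E-box bound by MYC with MAX.
LDHA, chr11:18394313-18394612 (+): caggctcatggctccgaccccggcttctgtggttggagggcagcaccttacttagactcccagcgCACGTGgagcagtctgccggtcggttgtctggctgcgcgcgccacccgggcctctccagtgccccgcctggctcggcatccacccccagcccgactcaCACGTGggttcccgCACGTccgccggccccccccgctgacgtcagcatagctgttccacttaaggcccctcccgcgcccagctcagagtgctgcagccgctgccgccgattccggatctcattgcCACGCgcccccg
LDHB, chr12:21657793-21658092 (-): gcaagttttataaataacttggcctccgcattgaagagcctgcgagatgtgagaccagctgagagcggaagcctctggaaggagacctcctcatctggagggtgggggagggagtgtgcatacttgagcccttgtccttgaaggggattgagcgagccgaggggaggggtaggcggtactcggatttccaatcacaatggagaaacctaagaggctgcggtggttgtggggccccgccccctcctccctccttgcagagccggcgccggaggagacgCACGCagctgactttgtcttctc
PGK1, chrX:78103998-78104297 (+): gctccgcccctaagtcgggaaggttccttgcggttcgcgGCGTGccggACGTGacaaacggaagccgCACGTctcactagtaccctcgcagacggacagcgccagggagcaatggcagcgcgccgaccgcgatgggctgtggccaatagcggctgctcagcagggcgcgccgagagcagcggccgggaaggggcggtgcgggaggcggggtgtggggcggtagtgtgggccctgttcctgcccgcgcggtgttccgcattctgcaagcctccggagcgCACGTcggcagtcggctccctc

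This LDHA window held CACGTG at 2 places, 1 further ACGTG and 1 GCGTG; a second LDHA window held 1 GCGTG. The LDHB window held 1 GCGTG and no ACGTG, and the PGK1 window 3 ACGTG and 1 GCGTG. RefSeq windows matched 9 of the 10 genes, all but SLC2A3, with 20 windows in all, several of which overlap or belong to 1 gene. Either motif occurred in 13 of the 20 windows, and in 48.4% of 35116 promoters of the same length (ACGTG in 21.4%, GCGTG in 36.5% and CACGTG in 7.26%). ACGTG occurred in 5 of the 20 windows and CACGTG in 2, of LDHA and of HK2. Such matches describe letters in these windows only.

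The genes whose log2(FPKM + 1) followed LDHB most closely over the 12 libraries were MRPL47 (mitochondrial ribosome), CCT8 (chaperonin), COPS5 (COP9 signalosome), SMIM30 and DDX50 (RNA helicase), with Pearson r from 0.994 to 0.996. CCT8, for example, averaged 178, 119.7, 26.7 and 64.2 FPKM in the 4 populations in order. The 12 points share libraries and 4 population means, so this is a description.

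**Figure D5:**
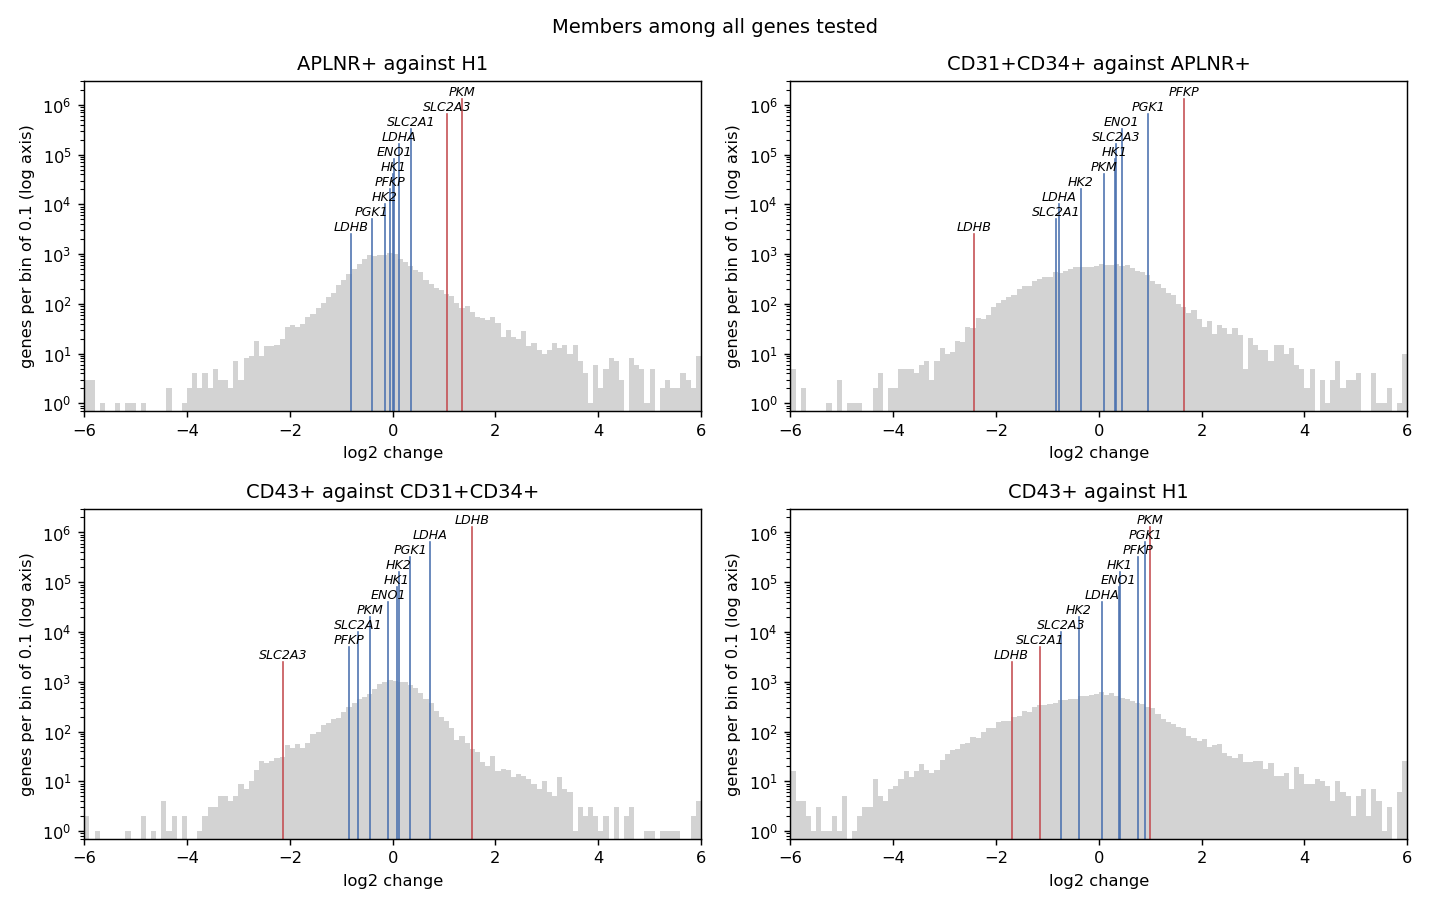
Distribution of log2 changes of all 14840 genes tested in the 4 comparisons (grey, bins of 0.1, log axis; values beyond 6 are drawn in the outermost bins), with lines at the 10 members (red: adjusted p under 0.05 and at least 2-fold; line heights only separate the names). LDHB lies in the lower tail at the second step (-2.43) and SLC2A3 in that of the third (-2.14), while most members sit within the bulk.

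Of 34 other glycolytic genes (remaining transporters, isoenzymes, intermediate steps and regulators), 24 were tested. From H1 to APLNR+ cells 5 were raised and 9 lowered, median change -0.16 against -0.12 over all genes. At the next step 11 were raised and 4 lowered (median 0.34 against -0.01), and from CD31+CD34+ to CD43+ cells 7 were raised and 10 lowered (median -0.15 against -0.0049). In CD43+ cells against H1, 11 were raised and 9 lowered (median 0.14 against -0.10). Over all genes tested, the shares raised and lowered were 22.7% and 35.2%, 35.9% and 37.9%, 25.9% and 27.8%, and 33.2% and 41.5% in the 4 comparisons. The next genes were picked for description after their values were seen, for their place beside PFKP and PGK1. GAPDH, glyceraldehyde 3-phosphate dehydrogenase, went from 2289 ± 49.5 FPKM in H1 to 1330 ± 99.0 for APLNR+ and 1977 ± 156 for CD31+CD34+ cells (-0.79 and 0.57, adjusted p 8.91e-05 and 0.000631). GPI, glucose phosphate isomerase upstream of them, went from 92.7 ± 10.9 to 45.8 ± 3.25 and 94.9 ± 6.05 FPKM (-0.998 and 1.04, adjusted p 6.54e-06 and 2.68e-06). TPI1, triose phosphate isomerase, changed by -0.38 and 0.80 (adjusted p 0.00645 and 1.56e-05), whereas aldolase A (ALDOA) differed by -0.16 at the first step (adjusted p 0.302) and rose from 302 ± 23.9 to 634 ± 77.2 FPKM at the second (1.06, adjusted p 8.14e-06). Unlike PFKP, GAPDH, GPI, TPI1 and ALDOA each averaged highest in CD43+ cells, at 2839, 131.5, 1016 and 724 FPKM. From CD31+CD34+ to CD43+ cells GAPDH changed by 0.52 (0.0268 under quantile normalization) and GPI by 0.46, while libraries overlapped for TPI1 and for ALDOA. PGAM1, a phosphoglycerate mutase, averaged 138, 98.4, 127 and 94.1 FPKM in the 4 populations in order. Its APLNR+ and CD31+CD34+ libraries overlapped (83.3 to 110.5 against 102.4 to 146.4 FPKM), as did those of aldolase C (ALDOC; 19.96 to 26.8 against 24.2 to 34.9 FPKM).

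Among regulators of the pathway, PFKFB4, which makes and removes the phosphofructokinase activator fructose 2,6-bisphosphate, had the largest called rise of this list from APLNR+ to CD31+CD34+ cells, 6.04 ± 0.16 to 15.8 ± 0.84 FPKM (1.25 ± 0.09, adjusted p 8.92e-08). It was highest in CD43+ cells at 22.6 ± 2.02 FPKM (1.95 above H1, adjusted p 9.61e-10). TIGAR, a phosphatase known to lower the same activator, had the largest fall between the ends, from 6.85 ± 1.51 FPKM in H1 to 1.09 ± 0.13 for CD43+ cells (-1.90, adjusted p 2.1e-07). PFKFB2, the heart isoform, had the only rise of at least 2-fold in the list from CD31+CD34+ to CD43+ cells (1.02 ± 0.12, adjusted p 1.53e-05), a size that fell under 2-fold in 3 of 19 repeats of the fit. PGAM2, the muscle phosphoglycerate mutase, had the only fall of that size at the first step, from 1.62 ± 0.42 to 0.0916 ± 0.0207 FPKM (-1.25, adjusted p 2.45e-06). It reached 1 FPKM in H1 libraries only and at most 0.426 FPKM in the others. PGAM2 thus passed the filter only through the population where it was high, so its fall is given as a description.

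Genes that take pyruvate or lactate onward were tested for 16 of 17. They were raised and lowered in numbers of 4 and 7, 3 and 9, 4 and 5, and 6 and 9 in the 4 comparisons (medians -0.19, -0.44, -0.06 and -0.56, beside -0.12, -0.01, -0.0049 and -0.10 over all genes). The shares of all genes given for the other glycolytic genes stand behind these counts too. SLC16A3 encodes MCT4, the monocarboxylate transporter known for lactate export. It went from 1.29 ± 0.27 FPKM in H1 to 11.96 ± 1.84 for APLNR+, 96.3 ± 9.64 for CD31+CD34+ and 82.7 ± 12.9 for CD43+ cells, with rises of 2.501 ± 0.14 and 2.91 ± 0.14 (adjusted p 2.79e-08 and 5.91e-09) and 5.19 between the ends (adjusted p 2.05e-11). SLC16A1 (MCT1), which moves lactate either way, went the other way, from 115 ± 1.88 to 75.6 ± 1.72, 48.5 ± 4.63 and 29.8 ± 4.28 FPKM, lowered at every step (adjusted p 0.000363, 0.000151 and 0.000149). BSG, the chaperone of both, rose from 120.0 ± 9.36 to 312 ± 21.7 FPKM from APLNR+ to CD31+CD34+ cells (1.37, adjusted p 2.31e-07).

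At the same step, where LDHB fell, the 5 listed subunits of the mitochondrial pyruvate dehydrogenase complex were lowered, as were 37.9% of all genes, and they were singled out after their values were seen. DLAT, PDHA1 and PDHX were lowered by less than 2-fold (log2 changes -0.43, -0.53 and -0.56, adjusted p 0.00925, 0.000176 and 0.00217). DLD, its shared dihydrolipoamide dehydrogenase, had the largest fall of the list, from 33.2 ± 8.57 to 5.67 ± 1.00 FPKM (-2.33 ± 0.19, adjusted p 4.05e-07), and stood 1.94 below H1 for CD43+ cells (log2 change -1.94, adjusted p 1.43e-06). PDHB, a catalytic subunit, fell from 111 ± 8.55 to 40.2 ± 1.59 FPKM (-1.44 ± 0.09, adjusted p 3.62e-08). PDK2, a kinase that inhibits the complex, rose from 2.51 ± 0.24 to 10.1 ± 2.08 FPKM (1.64 ± 0.22, adjusted p 2.87e-05). PDK3, another such kinase, had fallen at the first step (-1.02, adjusted p 0.000599), by less than 2-fold in 5 of 18 repeats of the fit. From APLNR+ to CD31+CD34+ cells PDK3 averaged 3.46 and 2.95 FPKM and PDK1 8.17 and 10.9 FPKM, both with overlapping libraries. PDK4 averaged 1.008 and 0.0896 FPKM there and was not tested. MPC1, a subunit of the mitochondrial pyruvate carrier, had the largest rise from CD31+CD34+ to CD43+ cells, 3.79 ± 0.51 to 11.8 ± 1.25 FPKM (1.42 ± 0.11, adjusted p 4.48e-07).

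The 7 pentose phosphate genes, which branch off at the product of hexokinase, were all tested. In APLNR+ cells 0 were raised and 5 lowered against H1 (median -0.70), beside 22.7% and 35.2% of all genes and their median of -0.12. In CD31+CD34+ cells 5 were raised and 1 lowered against APLNR+ cells (median 0.82), beside 35.9% and 37.9% of all genes and their median of -0.01. CD43+ cells against CD31+CD34+ cells had 3 raised and 1 lowered (median 0.08, beside 25.9% and 27.8% of all genes), and against H1 3 raised and 1 lowered (median 0.15, beside 33.2% and 41.5%). TALDO1, transaldolase, fell from 116 ± 12.3 to 46.2 ± 2.13 FPKM at the first step (-1.30 ± 0.09, adjusted p 1.71e-07) and rose to 163 ± 11.1 FPKM for CD43+ cells (1.11 ± 0.09 at the last step, adjusted p 8.64e-07). Between the ends, PGLS, 6-phosphogluconolactonase, was raised most (1.40, adjusted p 9.86e-08) and RPE, ribulose phosphate epimerase, lowered most (-1.20, adjusted p 1.84e-06).

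Factors and other targets of the hypoxia response, outside glycolysis, were tested for 16 of 17 genes. Raised and lowered numbered 5 and 5, 3 and 9, 7 and 5, and 6 and 4 in the 4 comparisons (medians -0.04, -0.30, 0.28 and 0.20, beside -0.12, -0.01, -0.0049 and -0.10 over all genes). Of all genes, 22.7% and 35.2%, 35.9% and 37.9%, 25.9% and 27.8%, and 33.2% and 41.5% were raised and lowered in these comparisons, and the same shares stand behind the counts of the other lists. HIF1A, the oxygen-regulated subunit, was at 87.3 ± 6.76, 63.7 ± 3.31, 40.8 ± 3.31 and 24.5 ± 1.07 FPKM in order and lowered at each step (adjusted p 0.00109, 4.47e-05 and 3.39e-05), the first not under quantile normalization (-0.19, adjusted p 0.144). EPAS1 (HIF-2A) had the largest rise from APLNR+ to CD31+CD34+ cells, from 0.396 ± 0.236 to 4.11 ± 1.29 FPKM (1.85 ± 0.20, adjusted p 5.43e-06), and CD43+ cells were 2.11 above H1 (adjusted p 1.24e-06). EGLN3, a prolyl hydroxylase that marks these factors for breakdown, rose from 6.68 ± 0.16 to 70.9 ± 4.22 FPKM at the first step and fell to 13 ± 1.41 at the second (3.22 and -2.36, adjusted p 4.78e-11 and 7e-10). ADM, adrenomedullin, was lowered most at the first step and between the ends (-1.20 and -3.91, adjusted p 8.86e-05 and 9.87e-10). NDRG1 had the largest fall (-2.22, adjusted p 2.55e-07) and DDIT4 the largest rise (1.38, adjusted p 1.68e-05) from CD31+CD34+ to CD43+ cells. As RNA levels, these values do not measure HIF protein, which is regulated by its stability.

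MYC, MYCN and their partner MAX were tested as the second group of factors: 0 raised and 1 lowered, 2 and 1, 3 and 0, and 3 and 0 in the 4 comparisons. Behind these few genes stand the same shares of all genes as for the hypoxia response. MYCN fell from 26.2 ± 2.07 FPKM in H1 to 10.8 ± 0.74 for APLNR+ cells (-1.20, adjusted p 2.35e-05), reached 6.55 ± 1.35 for CD31+CD34+ cells and rose to 68.2 ± 11.8 for CD43+ cells (3.20 ± 0.15, adjusted p 5.57e-09). MYC was at 21.3 ± 1.69, 22.0 ± 3.38, 37.9 ± 5.09 and 56.8 ± 7.23 FPKM in order, raised at the last 2 steps (adjusted p 0.000279 and 0.00362), and MAX was raised most between the ends (1.89, adjusted p 1.21e-07).

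In the comparison of both ends, the median of all genes lay at -0.10 as deposited and at 0.02 after median-of-ratios scaling, a shift of 0.12. Relative to that median, SLC2A1 lay at -1.04 as deposited and at -0.996 after the scaling, LDHB at -1.60 and -1.55, PKM at 1.104 and 1.15, PGK1 at 1.01 and 1.06, and PFKP at 0.86 and 0.91. No member that passed the test in this comparison changed direction under any of the 3 other scalings.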

How the data were processed

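RNA-seq of 12 libraries, 3 per population, was taken from a single table of 58365 gene entries. The authors deposited FPKM values per gene; the submitters' processing notes name BWA, Bowtie, RSEM and hg19 without their roles, and versions and annotation are not given in the sources used here. A closing line of text was left out. Read totals are not part of the table, so no counting error can be given. The labels do not say which company sequenced which library, so that part was not tested.

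Symbols on several lines were kept by the line with the highest mean; the members had 1 line each. Genes with at least 1 FPKM in at least 3 libraries were tested on log2(FPKM + 1), a pseudocount of 1 that understates changes of low genes, by limma 3.58.1 (R 4.3.3) with all 4 populations in 1 fit, eBayes with trend and no covariate. P-values were adjusted by Benjamini-Hochberg over all 14840 genes in each comparison. Ratios within libraries were compared by the exact two-sided permutation test (scipy 1.17.1). The fit was tested on simulated data. Alternatives varied the pseudocount, filter, scaling, fit, minimum change and libraries. Promoter windows came from RefSeq (GRCh38.p14), and stretches shared between transcripts from GENCODE, both only for sequence.

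The members and lists were chosen with earlier results of these data known. Named genes were the members, their paralogs, the called gene with the largest rise and fall of each list and comparison, and the 5 genes most correlated with the member of widest range. Some genes that this rule names are not reported here. Family shares were computed after their values were seen. GPI, ALDOA, ALDOC, TPI1, GAPDH, PGAM1, SLC16A1, BSG, PDK1, PDK2, PDK4, HIF1A and MYC were also named after their values were seen. The same holds for the pyruvate dehydrogenase subunits other than DLD.

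The labels number the replicates alike in every population, but do not say that a number marks a shared differentiation. Deviations of same-numbered libraries from their population means correlated at 0.392, 0.205 and 0.192 between CD31+CD34+ and CD43+ cells, and at 0.386, 0.247 and 0.174 between H1 and CD43+ cells. The first value of each set belongs to replicate 1, the shallowest library of every population, and the part of depth was not tested. Correlations between differently numbered libraries were not computed, so these values do not show pairing. The main tests used no pairing, and the replicate block was an alternative fitted over all comparisons.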

Additional observations from a re-analysis of the deposited data

How the results depend on the processing

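Counts of members changed at least 2-fold (2, 2, 2 and 3 in the 4 comparisons in order) became 5, 9, 7 and 9 with no minimum change, and at a minimum of 1.5-fold 5 at the second step, 5 at the third and 6 in CD43+ cells against H1. Quantile normalization gave 4 at the second step, where SLC2A1 (-1.06) and LDHA (-1.01) then exceeded 2-fold; the other 44 counts stayed within 1.5 times. Leaving out each library in turn gave from 2 to 2, from 2 to 3, from 2 to 2 and from 2 to 3. With the replicate number as a block the counts stayed at 2, 2, 2 and 3, and the block changed no call of a member; between the other populations same-numbered libraries correlated at 0.429, 0.23 and -0.0214 (H1 and APLNR+) and at 0.196, 0.0254 and 0.0397 (APLNR+ and CD31+CD34+). PKM in CD43+ cells against H1 fell to 0.78 under quantile normalization, and SLC2A1 to -0.98 under median-of-ratios scaling, whereas PGK1 reached 1.02 and 1.07 under upper-quartile and median-of-ratios scaling. PGK1 at the second step passed 2-fold without APLNR+ replicate 2 (1.02), APLNR+ replicate 3 (1.01) or CD31+CD34+ replicate 1 (1.08).

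Some changes turned in sign: PFKP at the first step (0.0571 upper-quartile, 0.159 quantile, 0.0523 median-of-ratios), PKM at the second (-0.13, quantile), ENO1 in CD43+ against APLNR+ cells (-0.26, quantile) and GAPDH in CD43+ cells against H1 (-0.14, quantile); the cause was not tested. Without single libraries, the first-step changes of HK1 (-0.0165 to 0.0502), PFKP (-0.101 to 0.0363) and ENO1 (-0.0556 to 0.111), those of ENO1 at the third step (-0.208 to 0.0269) and LDHA in CD43+ cells against H1 (-0.0269 to 0.179), and the log2 ratio of HK2 to HK1 at the third step (-0.0522 to 0.213) took both signs. Over all settings, from 3 to 7, 5 to 9, 6 to 8 and 7 to 9 members had an adjusted p under 0.05. Quantile normalization added ENO1, HK1 and LDHA at the first step and ENO1 and HK1 at the third. ENO1 in CD43+ against APLNR+ cells (0.36) also missed the threshold in 6 settings. Under quantile normalization it passed in the opposite direction (-0.26, adjusted p 0.0476). Over all genes, calls numbered 2363, 4400, 2133 and 5501. With a pseudocount of 0.1 they were 3632 and 3605 at the first and the third step, and with a mean of at least 5 FPKM (8622 genes tested) 1193, 1313 and 3309 in the first, the third and the end-to-end comparison. They were 8594, 10948, 7961 and 11076 with no minimum change and 5222, 7952, 4846 and 8617 at 1.5-fold. Of the repeats for list genes, 1 reversed and 32 missed the threshold. Without read totals, precision at low FPKM, as for HK2, cannot be given.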
